A study of Mus musculus with 5 samples.

Results

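An anti-FLAG RNA immunoprecipitation (RIP) and an IgG RIP, both made from lysate of embryonic stem cells carrying FLAG:MKRN1, were compared gene by gene. These were 2 of the 5 arrays of the series, with 1 array per group, and the comparison held the lysate constant while the antibody differed. For each of 19937 genes the difference was the log2 signal of the anti-FLAG RIP less that of the IgG RIP, read from the brightest probe set of the gene among 34760 probe sets. A gene was counted as higher or lower at a log2 difference of at least 1 in size, which is 2-fold. Counts refer to 11502 genes whose mean signal over the 5 arrays reached the level filter, set at the median over probe sets (a log2 value of 5.76), unless all genes are named.

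The cells were R1 mouse embryonic stem cells, a male line of 129X1 x 129S1 background derived from the inner cell mass. One line carried pCAGGS::3xN-FLAG:MKRN1, a constitutive construct that adds 3 FLAG tags to the MKRN1 protein, and the other carried the pCAGGS FLAG vector without MKRN1 (FLAG:Ctrl). Both were resistant to G418, were described as clones, received no treatment, and were grown in LIF and serum first on mouse fibroblast feeders and then on gelatin. Each RIP used 4 mg of protein, 10 µg of antibody and 6 bead washes, and 10 ng of RNA went into cDNA for an Affymetrix array. Beside the 2 RIPs compared here, the other arrays were an input of each lysate and an anti-FLAG RIP made from the FLAG:Ctrl line. The labels call the line an overexpression of FLAG:MKRN1, and pCAGGS carries a strong general promoter. The protein was not measured here, and the number of clones behind each lysate is not given in the sources used here.

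Makorin proteins join a RING domain, which acts in ubiquitin transfer, to zinc fingers of the CCCH type, a fold that many RNA-binding proteins share. In a RIP, an antibody on beads collects a protein with the RNA bound to it, and an unspecific IgG on the same lysate collects the RNA that sticks to beads and antibody. A positive difference therefore marks RNA with a larger share in the anti-FLAG eluate than in the IgG eluate, and a negative one marks RNA with a smaller share, since the same mass of RNA was labelled each time.

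The array of the anti-FLAG RIP stood apart from the other arrays in spread. The SD of its values over all probe sets was 2.19, against 2.28 to 2.35 on the other 4 arrays, whose medians and its own ran from 5.68 to 5.88. Markers of embryonic stem cells were bright on every array. The 10 genes Pou5f1, Sox2, Nanog, Zfp42, Esrrb, Dppa5a, Dppa3, Tdgf1, Utf1 and Klf4 all lay above the level filter, with medians between 10.75 and 11.43. Fibroblast feeder markers had medians between 5.35 and 5.83, with 5 to 7 of 13 above the filter, and Thy1, a surface glycoprotein, was the highest at 8.24 to 9.88. The part of feeder RNA in any result was not tested, and in a lysate of many cells fewer cells of a type and less RNA per cell cannot be told apart. Mkrn1 read 11.71 in the FLAG:MKRN1 input, 11.80 in the FLAG:Ctrl input, 12.20 in the FLAG:Ctrl RIP, 11.90 in the anti-FLAG RIP and 11.99 in the IgG RIP. Its RNA was thus no higher on any array of the FLAG:MKRN1 line than in the FLAG:Ctrl RIP, whether the probe set reads the construct was not analysed here, and each direction below rests on the labels.

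The sequences that follow belong to the microRNA genes at either end of those above the level filter, and to seed companions of the lowest. Mir6516 and Mir335 were the highest microRNA genes above the filter, and Mir363 the lowest; Mir25 and Mir92b share the seed of Mir363, AUUGCAC, and lay apart from it. The mature RNAs are given as in RefSeq (GRCm38.p6), with bases 2 to 8, the seed, in capitals.
mmu-miR-6516-5p: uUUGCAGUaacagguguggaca
mmu-miR-6516-3p: uCAUGUAUgauacugcaaacag
mmu-miR-335-5p: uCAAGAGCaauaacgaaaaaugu
mmu-miR-335-3p: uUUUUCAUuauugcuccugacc
mmu-miR-363-3p: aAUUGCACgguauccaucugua
mmu-miR-25-3p: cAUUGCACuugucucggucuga
mmu-miR-92b-3p: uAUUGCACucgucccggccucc
They lie at chr11:117077370-117077391 and chr11:117077412-117077433 on the plus strand for miR-6516, at chr6:30741314-30741336 and chr6:30741354-30741375 on the plus strand for miR-335, and on the minus strand at chrX:52741697-52741718, chr5:138165332-138165353 and chr3:89227126-89227147 for miR-363, miR-25 and miR-92b. A probe set named for a microRNA gene does not separate the arms, and whether it read the mature RNA or a longer precursor was not analysed here.

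The anti-FLAG RIP had more lower than higher genes. Of the genes kept, 176 (1.53%) were at least 2-fold higher than in the IgG RIP and 798 (6.94%) at least 2-fold lower. The median difference was -0.00098 and the quartiles were -0.41 and 0.19, so the lower side had the longer tail. At 2.83-fold the counts were 45 higher and 190 lower, at 4-fold 19 and 32, and at 8-fold 3 and 2. The 3 genes past 8-fold on the high side were the small nucleolar RNA genes Snora21, Snord35a and Snora20, and the 2 on the low side were the protein-coding genes Rbbp6 and Timm21.

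As a yardstick for the spread between background RIPs, the IgG RIP was set against the anti-FLAG RIP from the FLAG:Ctrl line. There, 32 genes (0.278%) were 2-fold higher and 20 (0.174%) 2-fold lower in the IgG RIP, and the SD of the difference was 0.24 against 0.55 for the comparison at hand. That yardstick differs in lysate as well as antibody and is 1 pair of arrays, so it gives no error for a single gene. No difference has a replicate check. The share of higher genes among those 2-fold apart was 18.1% (Wilson interval 15.8% to 20.6%, counting error only), and it moved with scaling. It was 7.44% with the arrays centred on the median of all probe sets, 31.8% centred on the genes kept, 31.0% after quantile normalization, and 33.8% after the trend with signal level was subtracted. The median of the genes kept was -0.18 and 0.14 under the 2 centrings. The lower genes outnumbered the higher under each of these scalings.

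The direction of the difference followed signal level. Genes were divided by their mean over the 5 arrays into bands with limits at log2 values of 4, 6, 8, 10 and 12, here over all genes, of which 1.07% were higher and 4.03% lower. Centring the arrays shifts every band median by the same -0.18 or 0.14. Under 4, the band median was 0.16 and 2 of 1484 genes were higher, with 0 lower. From 4 to 6 the median was 0.15, with 44 higher and 8 lower among 7804 genes. At these dim levels, where the olfactory and vomeronasal receptor families mostly lie, the anti-FLAG RIP read slightly brighter than the IgG RIP without reaching 2-fold for most genes.

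**Figure D1:**
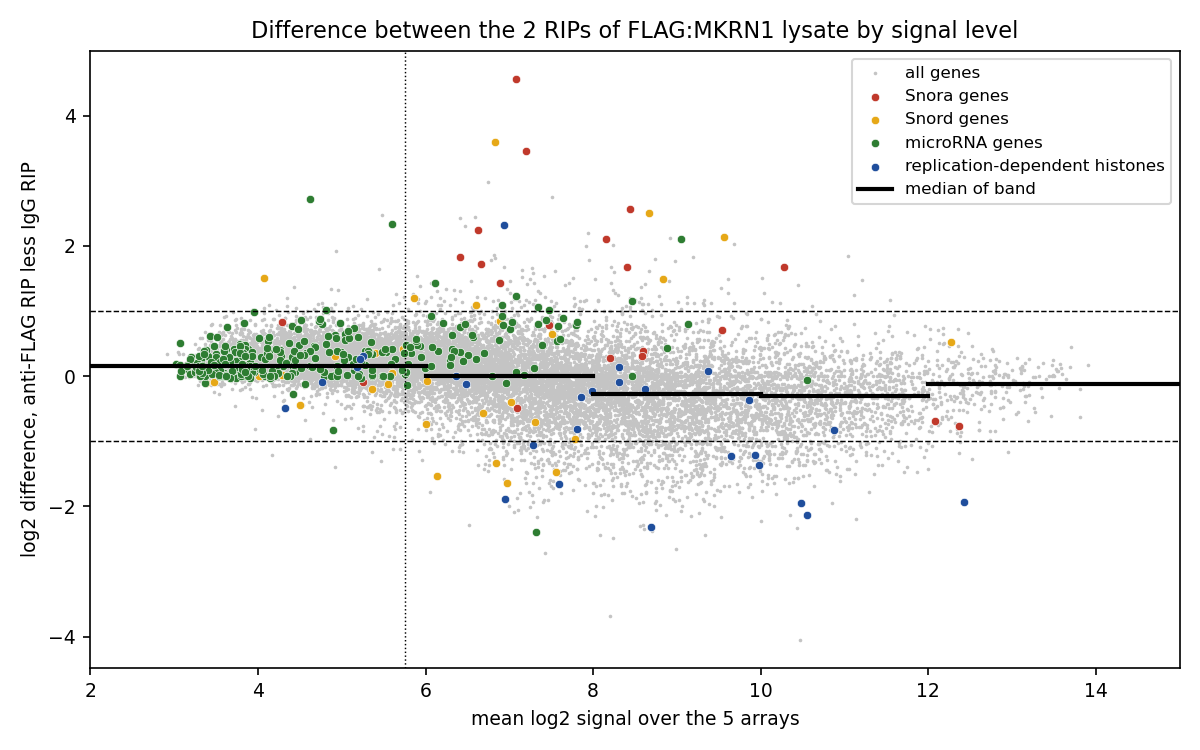
Difference between the anti-FLAG and IgG RIPs (log2, vertical axis) against mean log2 signal over the 5 arrays (horizontal axis); each point is 1 gene, black bars are band medians, dashed lines mark 2-fold and the dotted line the level filter at 5.76. Of the genes kept, 10 of 18 Snora genes and Mir6516 lie above the upper dashed line. Below the lower one lie 10 of 22 histone genes and Mir363. The band medians go from 0.16 at the dim end to -0.31 between 10 and 12.

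In the middle and upper bands the lower genes dominated. From 6 to 8 the median was 0, with 97 genes higher and 207 lower among 5772. Between 8 and 10 the median was -0.27 and 418 of 3259 genes (12.8%) were lower, against 59 higher. From 10 to 12 it was -0.31, with 165 of 1354 genes (12.2%) lower and 11 higher. At 12 and over, the brightest band, the median was -0.12 and 6 of 264 genes were lower, with 0 higher.

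The spread followed level too. Its SD was 0.19 under 4, 0.61 between 8 and 10 and 0.39 at 12 and over, while the pair of background RIPs had SDs of 0.09, 0.27 and 0.11 in these bands. Since the mean over the 5 arrays holds the compared arrays, the bands were also drawn from the mean of the inputs. The medians were then 0.17 under 4, 0.15 from 4 to 6, 0 from 6 to 8, -0.28 from 8 to 10, -0.34 from 10 to 12 and -0.14 at 12 and over. With those bands, 420 genes were lower from 8 to 10 and 182 from 10 to 12.

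**Figure D2:**
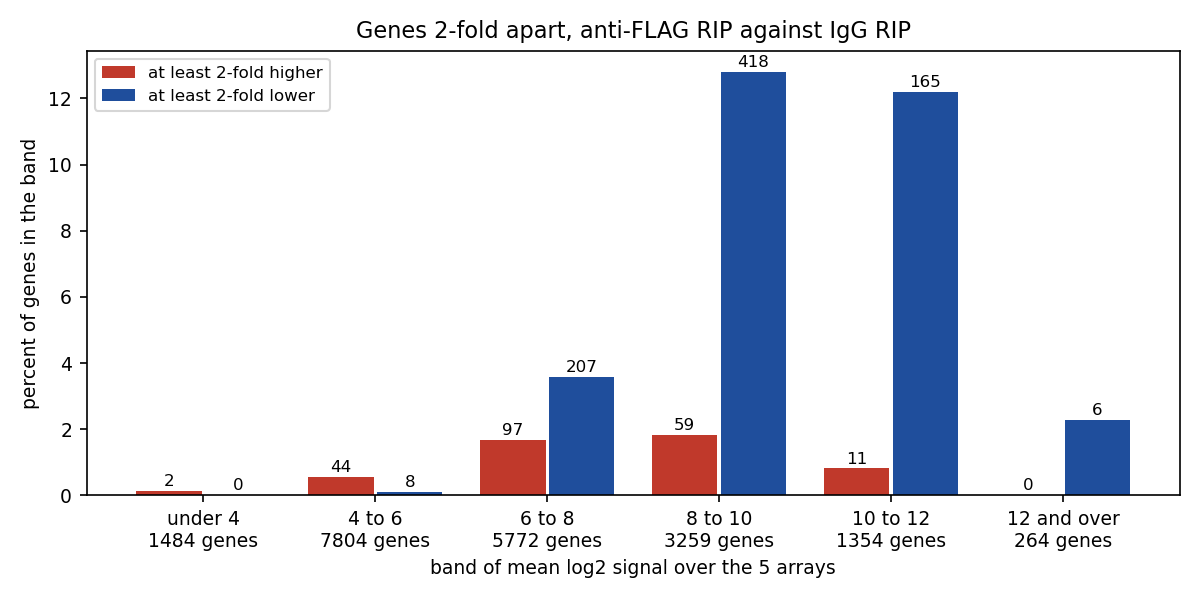
Percent of genes at least 2-fold higher (red) and lower (blue) in the anti-FLAG RIP than in the IgG RIP, by band of mean log2 signal over the 5 arrays; numbers over bars are gene counts, over all 19937 genes. Lower genes take 12.8% and 12.2% of the bands from 8 to 12 and 0.103% of the band from 4 to 6.

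At 2-fold, noncoding genes were more often higher than lower, and coding genes more often lower than higher. Genes were classed by the RefSeq accessions of their probe sets. Among 302 noncoding genes kept, 43 (14.2%) were higher and 10 (3.31%) lower, with a median of 0.32. Of 10923 coding genes, 124 (1.14%) were higher and 772 (7.07%) lower, with a median of -0.02, whose sign turns with centring on the genes kept. Over all genes kept, most of them coding, 1.53% were higher and 6.94% lower. Within the bands the class medians were 0.16 for both under 4, 0.21 (noncoding) and 0.15 (coding) from 4 to 6, and 0.29 and 0 from 6 to 8. From 8 to 10, 36 noncoding genes had a median of 0.70 and 14 were higher, while 3185 coding genes had a median of -0.27 and 44 were higher. At 10 to 12 there were 12 noncoding genes with a median of -0.04, against -0.31 for the coding genes of that band. At 12 and over the order was turned: 5 noncoding genes had a median of -0.55 and 253 coding genes one of -0.12.

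Each RIP was also set beside the input of the same lysate. The higher and lower genes were chosen on the same 2 RIP arrays, so the counts that follow describe the choice and support nothing further. Of the 176 higher genes, 116 were at least 2-fold above that input in the anti-FLAG RIP, where 2.47% of genes kept were so, and 173 were above it by any amount. In the IgG RIP 11 of them were 2-fold below input, where 0.461% of genes kept were so. The medians for these 176 were 1.16 (anti-FLAG RIP less input) and -0.10 (IgG RIP less input). The larger part of the median difference of the higher genes thus lay on the array of the anti-FLAG RIP.

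The lower genes mirrored this. In the anti-FLAG RIP 486 of 798 were at least 2-fold below input, where 5.51% of genes kept were so, and 789 were below it. In the IgG RIP 29 were at least 2-fold above input, where 1.32% of genes kept were so. The medians over the 798 were -1.11 and 0.17 (anti-FLAG and IgG RIP less input). On the array of the anti-FLAG RIP 28 of the 798 lay below the level filter of 5.76, and the lowest value on any array was 2.56. On the array of the IgG RIP 14 of the 176 higher genes lay below that filter. Among all 5 arrays the anti-FLAG RIP held the highest value for 170 of the 176 higher genes and the lowest for 774 of the 798 lower genes, in part by the choice of these genes. For 9 of the 176 the mean of the 4 other arrays was below the level filter, so these genes were kept through the anti-FLAG array alone. The FLAG:Ctrl RIP, in place of the IgG RIP, shares the anti-FLAG array with these differences, and 127 of the 176 and 622 of the 798 were 2-fold apart from it in the same direction.

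Of the 15 highest differences, 9 belonged to noncoding RNAs. Values are given on the arrays in a fixed order: FLAG:Ctrl input, FLAG:MKRN1 input, FLAG:Ctrl RIP, IgG RIP and, last, the anti-FLAG RIP under comparison. Snora21, an H/ACA box RNA that guides pseudouridylation of ribosomal RNA, read 4.91, 6.68, 6.19, 6.52 and 11.09. It was 23.7-fold higher in the anti-FLAG RIP than in the IgG RIP, a difference of 4.57, and its other probe set differed by 2.18. The 4 other arrays ran from 4.91 to 6.68, all far below the anti-FLAG RIP.

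Snord35a, a C/D box RNA of the kind that guides ribose methylation, read 5.98, 7.52, 6.09, 5.48 and 9.07, a difference of 3.59. Its IgG value was under the level filter and also under its input, so the difference combines a value above input in the anti-FLAG RIP with one below input in the IgG RIP. Snora20 read 5.97, 7.91, 6.24, 6.21 and 9.66, a difference of 3.45, again with the IgG RIP below and the anti-FLAG RIP above the input of the lysate. Rnu3a, the U3 RNA that takes part in cleavage of the ribosomal RNA precursor, read 5.03, 6.38, 6.00, 6.65 and 9.63, which is 7.90-fold higher in the anti-FLAG RIP. Its value in the IgG RIP lay 0.27 above its input, so for Rnu3a the difference was carried by the anti-FLAG array.

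Other noncoding genes at this end followed. Snora75 read 7.29, 9.38, 7.30, 7.81 and 10.39 and differed by 2.57, and Snord38a read 7.92, 8.02, 8.13, 8.39 and 10.89 and was 5.67-fold higher. For Snord38a the 4 other arrays were close together. Snora30 differed by 2.24, the 5S ribosomal RNA gene n-R5s136 by 2.19 and Snord49b by 2.14.

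Protein-coding genes in the top 15 were few and mixed in function. Depdc1a, a gene of dividing cells, ran from 6.48 in the FLAG:Ctrl input to 10.25 in the anti-FLAG RIP, a difference of 2.75 from the IgG RIP at its brighter probe set and -0.07 at the other. The signal that set Depdc1a apart was thus confined to 1 of its 2 probe sets. Tmsb15a, which encodes a beta-thymosin, a small actin-binding peptide, read 4.99, 5.51, 6.67, 6.67 and 9.12. Both background RIPs of Tmsb15a lay above both inputs, and the anti-FLAG RIP lay 2.44 above the IgG RIP.

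BC147527, of a repeated gene cluster, had values of 4.93, 6.06, 4.35, 7.14 and 9.57 and a difference of 2.43. The mean of its 4 other arrays was 5.62, below the level filter, so it was kept through the anti-FLAG array where it is high; it was the only such gene of the 15. H3c15, a histone H3 gene, read 6.16, 5.91, 6.60, 6.85 and 9.17, Wfdc15a differed by 2.30, and Vpreb1, for a component of the receptor of early B cells, read 8.96, 7.95, 8.37, 8.59 and 10.71. Among these the BC147527 values varied most between the 4 other arrays.

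**Figure D3:**
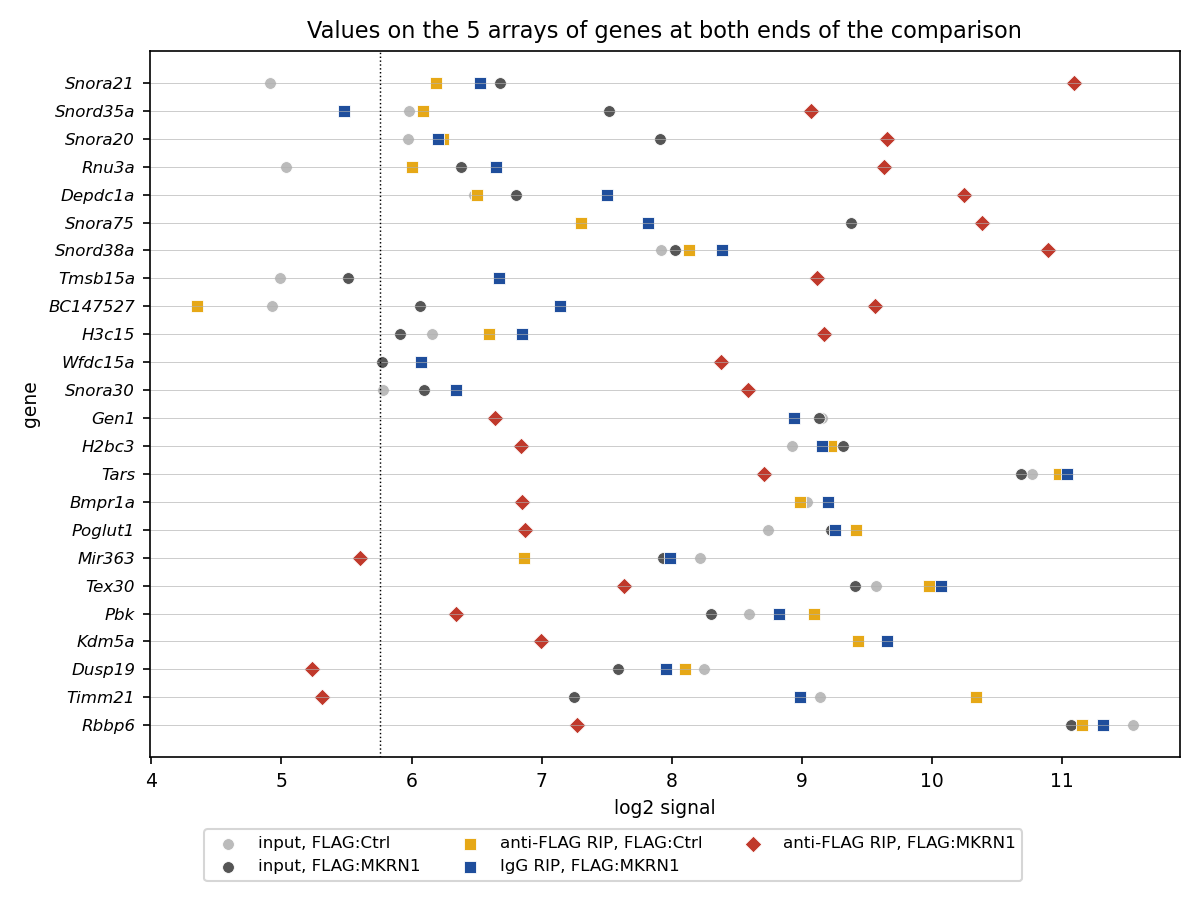
Log2 signal (horizontal axis) on each of the 5 arrays for 12 genes at the high end and 12 at the low end, 1 row per gene; overlapping symbols hide each other and the dotted line is the level filter. The anti-FLAG RIP (red diamonds) is the highest array in the upper rows and the lowest in the lower rows, from 11.09 for Snora21 to 5.24 for Dusp19.

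At the low end 13 of the 15 genes were protein-coding. Rbbp6, a RING-domain protein of the 3′ end processing machinery that binds p53 and Rb, read 11.55, 11.07, 11.16, 11.32 and 7.27. It was 16.5-fold lower in the anti-FLAG RIP, a difference of -4.05, and its other probe sets differed by -2.22 and -0.68. The size of the Rbbp6 difference therefore depended on the probe set, while its sign did not.

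Timm21, a subunit of the mitochondrial inner membrane import machinery, read 9.14, 7.25, 10.34, 8.99 and 5.31, a difference of -3.68. Its 4 other arrays ran from 7.25 in the FLAG:MKRN1 input to 10.34 in the FLAG:Ctrl RIP, a wide span. Dusp19, a dual-specificity phosphatase, read 8.25, 7.59, 8.11, 7.95 and 5.24, and Kdm5a, a histone H3 lysine demethylase, read 9.43 on both inputs and on the FLAG:Ctrl RIP and 9.65 on the IgG RIP. In the anti-FLAG RIP Kdm5a was 6.30-fold lower than in the IgG RIP and below every other array.

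Pbk, a mitotic kinase, read 8.59, 8.31, 9.09, 8.83 and 6.34, a difference of -2.49. Tex30 differed by -2.43 and Poglut1, which adds glucose to Notch, by -2.38. Bmpr1a, a receptor for bone morphogenetic proteins, read 9.04, 8.99, 8.99, 9.20 and 6.85, a difference of -2.35. Tars, the threonyl-tRNA synthetase gene, read 10.77, 10.68, 10.98, 11.04 and 8.71, and H2bc3, a histone H2B gene, 8.92, 9.32, 9.23, 9.16 and 6.84. In these genes the 4 other arrays lay within 1 log2 unit, and the anti-FLAG array lay below each of them.

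Gen1, a nuclease that resolves Holliday junctions, differed by -2.29, and Fem1c, a substrate adaptor of a ubiquitin ligase, by -2.28. Rian, a long noncoding RNA of the imprinted Dlk1 cluster, read 9.24, 7.35, 5.43, 6.43 and 4.14, also a difference of -2.29. Rian was lower in every RIP than in its own input, and its inputs differed by more than 1 log2 unit, as those of Timm21 did. At the high end the inputs were likewise more than 1 log2 unit apart for Snora21, Snord35a, Snora20, Rnu3a, Snora75, Snord49b, BC147527 and Vpreb1. Snora75, for example, read 7.29 in the FLAG:Ctrl input and 9.38 in the FLAG:MKRN1 input.

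Each band had its own ends. Below 4 the highest were Gm6133 at 1.02 and Olfr237 at 1.01, and the lowest was Faiml at -0.81. From 4 to 6 the highest were Mir3068 at 2.72, the Cajal body RNA Scarna8 at 2.48 and Mir465 at 2.34. Mir3068 read 4.11, 4.06, 4.20, 4.00 and 6.72, so it passed the level filter on the anti-FLAG array alone, and by its mean it was not among the genes kept. The lowest from 4 to 6 were Zfp959 at -1.39, Pdss2, an enzyme of coenzyme Q synthesis, at -1.30 and B230354K17Rik at -1.29.

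From 10 to 12 the highest was Hdgf, a growth factor that also binds chromatin, with 10.77, 10.77, 10.92, 10.45 and 12.29, a difference of 1.84. Snora33 followed at 1.68 and Ptpn3, a tyrosine phosphatase gene with 12 probe sets, was 2.84-fold higher. The lowest in this band were Rbbp6, Tars and Pbrm1, a subunit of the PBAF chromatin remodeller, at -2.23.

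At 12 and over the differences were small on the high side. Polr2l, a small subunit shared by the RNA polymerases, differed by 0.73, as did Taf10, a TFIID subunit, and Bola2, which takes part in iron-sulfur cluster handling. The lowest at this level were the histone H4 gene H4c4, which read 13.03, 13.19, 12.58, 12.64 and 10.71 (a difference of -1.93), Eif3m at -1.27 and Psmc5, a proteasome ATPase, at -1.17. Eif3m encodes a subunit of translation initiation factor eIF3. Pcna, the sliding clamp of replication, at -1.16, Mtf2, a Polycomb accessory protein, at -1.07 and Fbl, the methyltransferase of C/D box RNPs, at -1.01 were the other lower genes of this band.

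Small nucleolar and Cajal body RNAs had the largest share of 2-fold higher members (43.6%) among lists with at least 20 genes kept. Of 54 on the array 39 were kept; 17 were higher and 4 lower, with a median of 0.71, beside 1.53% higher, 6.94% lower and -0.00098 over all genes kept. The median stayed between 0.53 and 0.90 under the 4 other scalings. Relative to the input of their lysate these 39 had medians of 0.12 in the anti-FLAG RIP and -0.60 in the IgG RIP, and the box classes went different ways. The Snora genes had medians of 0.75 and -0.50, so at the medians of that class the larger part lay on the anti-FLAG array. Its members varied: Snora21 had 4.41 and -0.15, while Snora75 had 1.01 and -1.56 and Snora44 0.12 and -1.99. The Snord genes had medians of -0.53 and -0.60, below input in both RIPs.

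The box classes differed in their counts. Among 18 kept Snora genes 10 were higher and 0 lower, with a median of 1.55 and a range from -0.76 to 4.57. Among 19 Snord genes 6 were higher and 4 lower, with a median of -0.07 and a range from -1.64 to 3.59. The lowest, Snord33, read 7.27, 8.14, 7.35, 6.85 and 5.21, and Snord16a, Snord87 and Snord73b differed by -1.53, -1.47 and -1.34. Snora73b, the lowest Snora gene, differed by -0.76. The classes were not tested against each other.

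Most small nucleolar RNAs are cut from introns of other genes, and 18 kept members lie within the span of a kept gene in the RefSeq annotation. Over these 18 pairs the small RNA genes had a median of 0.99 and 9 were higher, while the enclosing genes had a median of -0.10, 0 were higher and 1 was lower. The small RNA lay above its enclosing gene in 13 of 18 pairs. Snora20 differed by 3.45 and Tcp1, the chaperonin subunit gene around it, by -0.69. Snora75 differed by 2.57 and its enclosing gene Ncl, for nucleolin, by 0.04. Snora23 differed by 0.78 and Ipo7, an import receptor gene, by -1.18, the lower enclosing gene.

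The order was turned for 5 pairs. Snord16a differed by -1.53 while Rpl4 around it differed by -0.18, and Snord73b by -1.34 while Rps3a1 differed by -0.02. Snora52 and Snord47 were also below the genes that hold them, Rplp2 and Gas5, as was Snord42b below Rpl23a. The enclosing genes ran from -1.18 to 0.20 and the small RNAs from -1.53 to 4.57.

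**Figure D4:**
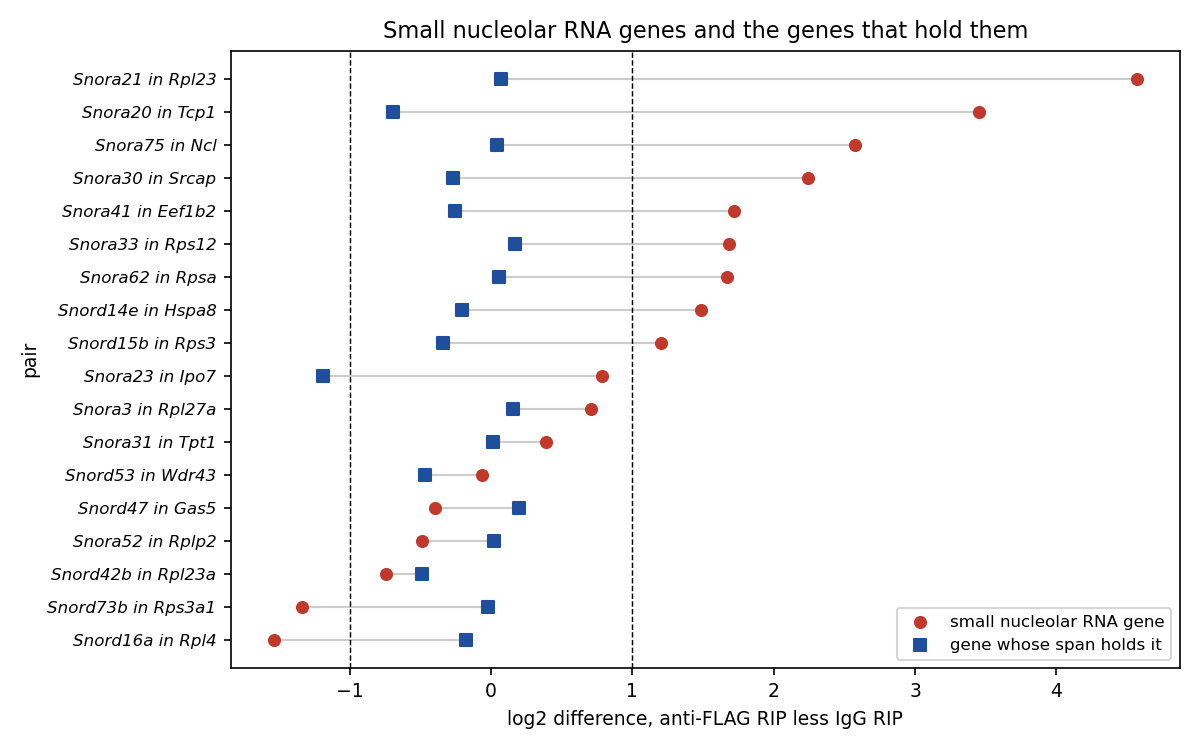
Log2 difference (anti-FLAG RIP less IgG RIP) of 18 small nucleolar RNA genes (red circles) and of the genes whose span holds them (blue squares), 1 pair per row; dashed lines mark 2-fold. The enclosing genes stay between -1.18 and 0.20 while the small RNAs run from -1.53 to 4.57.

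Structured small RNAs that the symbol patterns list apart also lay above the IgG RIP at the median. Of 8 kept, 3 were higher and 0 lower, with a median of 0.90, beside 1.53% higher over all genes kept. The higher ones were Rnu3a and the Y RNAs Rny3 and Rny1, which bind the Ro autoantigen. Rnu3a is itself a C/D box RNA, though not counted among the Snord genes. Relative to the input of their lysate the 8 had medians of -0.28 in the anti-FLAG RIP and -1.09 in the IgG RIP. Relative to the FLAG:Ctrl RIP the medians were 0.25 and -0.50. Rny3 read 10.40, 10.09, 9.43, 8.22 and 10.24 and differed by 2.03, and Rny1 read 7.80, 8.67, 7.05, 5.66 and 7.24 and differed by 1.58. In both Y RNAs the anti-FLAG RIP was near or below the inputs and the IgG RIP was the lowest of the 5 arrays.

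Rpph1, the RNA of RNase P, differed by 0.95, the minor spliceosome RNA Rnu12 by 0.84, the telomerase RNA Terc by 0.67 and Rmrp, the RNA of RNase MRP, by 0.44. Rn7sk, which holds the elongation factor P-TEFb inactive, read 13.41, 13.38, 13.38, 13.38 and 12.83, a difference of -0.55. Of 6 small nucleolar RNA host transcripts, Snhg17 differed by 2.00, 1.65 and -0.46 at its 3 probe sets and Snhg15 by 1.78, while the other 4 ran from -0.33 to 0.20.

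MicroRNA genes were shifted upward, most by less than 2-fold. Of 300 on the array 63 were kept, 57 of these differed by more than 0 and 4 by less than 0, and the median was 0.48, between 0.31 and 0.63 under the other scalings. At least 2-fold higher were 7 (11.1%, beside 1.53% of all genes kept): Mir6516, Mir335, Mir30d, Mir328, Mir188, Mir187 and Mir483. That count was 3 with centring on all probe sets, 10 after quantile normalization and 11 with centring on the genes kept. Mir6516 read 8.36, 9.48, 7.95, 8.68 and 10.78, and Mir335 read 5.98, 5.98, 5.89, 5.63 and 7.06, with differences of 2.10 and 1.43. In both, the anti-FLAG RIP was the highest array.

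Mir363 was the 1 lower microRNA gene, with 8.21, 7.93, 6.87, 7.99 and 5.60, a difference of -2.39. Its seed companions printed above did not share it: Mir25 read 6.94, 6.94, 6.94, 7.05 and 6.94, and Mir92b read 7.45, 7.45, 7.26, 7.07 and 7.94, differences of -0.11 and 0.86. Within the level bands the microRNA median was 0.57 over 45 genes from 6 to 8, where all genes had 0, and 0.29 over 131 genes from 4 to 6, where all genes had 0.15.

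**Figure D5:**
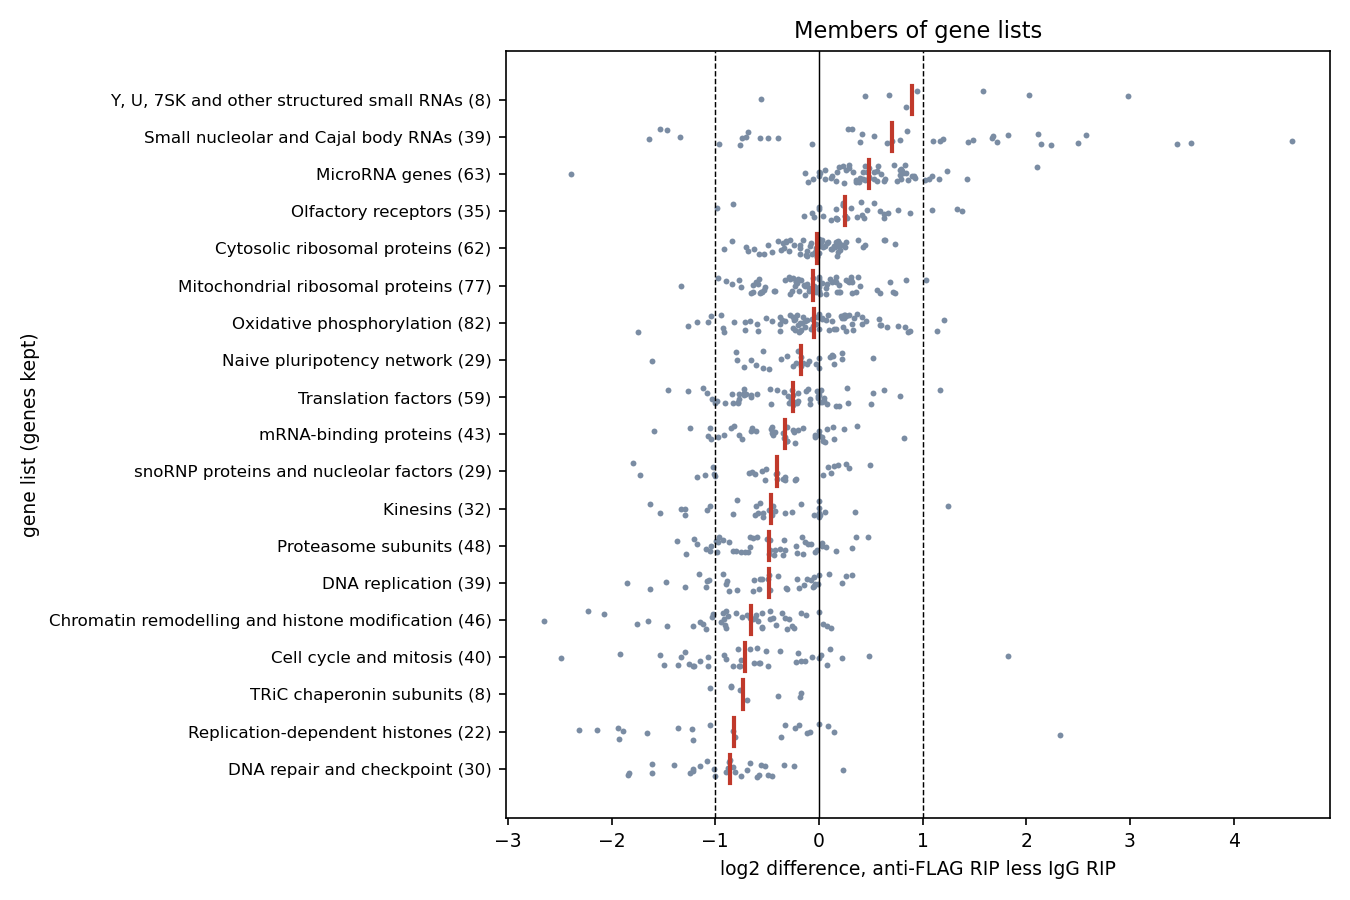
Log2 difference (anti-FLAG RIP less IgG RIP) of the kept members of 19 gene lists; each point is 1 gene (vertical offset is for display), red bars are list medians, dashed lines mark 2-fold and the number of genes kept is in parentheses. Medians run from 0.90 for the structured small RNAs to -0.86 for DNA repair and checkpoint genes.

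Replication-dependent histone genes, whose messenger RNAs end in a stem-loop instead of a poly(A) tail, had 10 of 22 kept members (45.5%) lower and 1 higher, beside 6.94% and 1.53% over all genes kept. With centring on the genes kept or quantile normalization 9 or 8 were lower. The median was -0.82, between -0.68 and -0.62 under 3 of the other scalings and lower still with centring on all probe sets. H2bc14 read 11.07, 11.05, 11.02, 10.88 and 8.75, and H1f5, a linker histone gene, 10.34, 11.04, 10.69, 11.14 and 9.20. Together with H2bc3 and H4c4 above, these had the anti-FLAG RIP well below the 4 other arrays.

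H3c15 was the exception at 2.32, and H4c9 at 0.14 and H2bc4 at 0.09 lay near 0. Within the bands 0 of 5 histone genes were lower from 4 to 6 and 3 of 9 from 6 to 8. From 8 to 10 it was 4 of 9, from 10 to 12 2 of 3, and at 12 and over 1 of 1. The shares of all genes lower in these bands were 0.103%, 3.59%, 12.8%, 12.2% and 2.27%. Members of this family have close sequence, and how far their probe sets read each other's RNA was not analysed here.

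In the values as deposited, genes of the DNA damage response had the lowest median among lists with at least 20 genes kept. After quantile normalization, or with the level trend removed, the histone list was lower, at -0.67 and -0.62. Of 30 kept DNA repair and checkpoint genes 12 (40%) were lower and 0 higher, beside 6.94% and 1.53% over all genes kept. Among the 30, 29 differed by less than 0, and the median was -0.86. After quantile normalization 9 were lower with a median of -0.57, and with the level trend removed the median was -0.51. Brca2, a recombination mediator, read 8.78, 8.92, 8.78, 8.85 and 7.01, a difference of -1.84. Atr, the kinase that answers stalled forks, read 8.23, 8.19, 8.29, 8.78 and 6.95, and Atm, the kinase that answers double-strand breaks, 7.76, 7.70, 7.79, 7.99 and 6.38. In all of these the other arrays lay close together and above the anti-FLAG RIP.

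Rif1, a regulator of replication timing and break repair, differed by -1.61, Brca1 by -1.40 and the checkpoint kinase Chek2 by -1.24. Lig4, the ligase of end joining, was the member above 0, at 0.24. By level, from 8 to 10, 7 of 18 (38.9%) were lower where all genes had 12.8%, and from 6 to 8 5 of 6 were lower where all genes had 3.59%. From 10 to 12, 0 of 6 were lower, with a median of -0.82 against -0.31 for all genes.

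Cell division genes were low as well. Of 40 cell cycle and mitosis genes 13 (32.5%) were lower and 1 higher, with a median of -0.71. The shares over all genes kept were 6.94% lower and 1.53% higher. From 8 to 10, 5 of 15 were lower where all genes had 12.8%, and from 10 to 12 8 of 20 where all genes had 12.2%. Quantile normalization left 6 of the 40 lower, and the median was -0.45 with the level trend removed. After Pbk the lowest were Cdk6, a G1 kinase, which read 9.29, 8.73, 9.33, 9.17 and 7.25, and the spindle checkpoint kinases Bub1 at -1.54 and Bub1b at -1.50. Cdk1, the mitotic kinase, differed by -1.33. The high member was Cdkn1b, the cyclin kinase inhibitor p27, at 8.40, 8.70, 9.05, 8.99 and 10.81, a difference of 1.83. Its other probe set differed by 0.05, so as with Depdc1a the 2 probe sets of Cdkn1b differed unlike each other.

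Kinesin motors had 7 of 32 (21.9%) lower, 1 higher and a median of -0.47, beside 6.94% lower over all genes kept. Quantile normalization left 4 lower. The lowest were the mitotic motors Kif4 at -1.62 and Kif15 at -1.54, and the high member was Kif1c, a transport motor, at 1.24. From 8 to 10, 6 of 10 kinesins were lower where all genes had 12.8%. From 10 to 12 it was 1 of 6, where all genes had 12.2%, and from 6 to 8 0 of 14. Of 39 DNA replication genes 8 were lower and 0 higher, with a median of -0.48 (5 lower after quantile normalization, and -0.23 with the trend removed), led by the clamp loader subunit Rfc4 at -1.85 and the origin recognition subunits Orc1 at -1.63 and Orc3 at -1.47.

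Chromatin regulators formed another low group. Of 46 genes for remodelling and histone modification 12 were lower and 0 higher, beside 6.94% and 1.53% over all genes kept. Their median was -0.65. Quantile normalization left 6 lower and centring on all probe sets gave 19, and the median was -0.39 with the level trend removed. Beside Kdm5a and Pbrm1 the lowest were Kdm6a, which removes methyl groups from lysine 27 of histone H3, with 8.25, 8.62, 8.25, 8.30 and 6.22, the remodeller Chd1 at -1.76 and the acetyltransferase Ep300 at -1.65. From 10 to 12, 6 of 20 (30%) were lower where all genes had 12.2%. At the other end Hdac3, a deacetylase, differed by 0.12 and Ehmt2, a methyltransferase, by 0.07.

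Some families were listed only after their values were seen, and their counts are descriptions chosen for their position. Their counts stand beside 6.94% lower over all genes kept. Of 15 Integrator subunits, which cleave nascent RNA at polymerase II, 7 (46.7%) were lower, with a median of -0.90 and Ints13 lowest at -1.69. Of 28 nucleoporins 11 (39.3%) were lower (6 after quantile normalization), with Ranbp2 at -1.80, Nup98 at -1.65 and Nup188 at -1.61. Of 16 Kdm demethylases 6 (37.5%) were lower. The aminoacyl-tRNA synthetases had 5 of 31 (16.1%) lower: 1 of 11 from 6 to 8, 1 of 9 from 8 to 10, 3 of 9 from 10 to 12 and 0 of 2 above. All genes had 3.59%, 12.8%, 12.2% and 2.27% lower in these bands. Among the lower synthetases were Tars and Iars, which read 11.48, 11.48, 11.48, 11.72 and 9.53. The other probe set of Iars differed by -0.87.

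Families chosen in the same way on the other side were milder, beside 1.53% higher over all genes kept. Collagens had a median of 0.31 over 31 genes with 0 higher, G protein gamma subunits 0.43 over 10 with 2 higher (Gng13 at 1.22 and Gng3 at 1.07), and the Smim series 0.38 over 17 with 1 higher, Smim27 at 1.62. The collagens had a median level of 6.31, against 7.61 for all genes kept and 7.52 for the G protein gamma subunits, and 23 collagens lay between 6 and 8, where they had a median of 0.34.

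Protein turnover and folding genes had medians below 0, and their counts stand beside 6.94% lower and 1.53% higher over all genes kept. Of 48 proteasome genes 7 (14.6%) were lower and 0 higher, with a median of -0.48. Quantile normalization left 2 lower with a median of -0.28, centring on all probe sets gave 14, and the median was -0.21 with the level trend removed. From 10 to 12, 5 of 30 (16.7%) were lower, near the 12.2% of all genes there. The lowest were Psmb2, a core subunit, at -1.36 and the assembly chaperone Psmg1 at -1.29. All 8 subunits of the cytosolic chaperonin TRiC differed by less than 0, from -1.05 for Cct3 to -0.18, with a median of -0.73 (-0.91 to -0.49 under the other scalings). Ubiquitin-conjugating and deubiquitinating enzymes had 13 of 73 (17.8%) lower and 0 higher, led by Usp9x, which read 10.73, 10.73, 10.85, 10.78 and 8.65. Of 28 genes of folding and stress in the endoplasmic reticulum 4 (14.3%) were lower, 1 after quantile normalization, when the median went from -0.33 to -0.10, with Atf6, a stress sensor, lowest at -1.81.

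Protein genes of the nucleolus were lower where they were 2-fold apart. Of 29 genes for snoRNP proteins and nucleolar factors 7 (24.1%) were lower and 0 higher, with a median of -0.41. The shares over all genes kept were 6.94% and 1.53%. After quantile normalization 3 of the 29 were lower, and the median was -0.15 with the level trend removed. The lowest were Polr1b, a subunit of RNA polymerase I, at -1.79 and Utp20, a ribosome assembly factor, at -1.72, and the core snoRNP genes Dkc1 and Fbl differed by -1.02 and -1.01. Nop10 was highest at 0.49.

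RNA-binding and translation genes had medians between -0.33 and -0.25, and their counts stand beside 6.94% lower and 1.53% higher over all genes kept. Among 43 mRNA-binding proteins 5 (11.6%) were lower and 0 higher, with a median of -0.33 that shrank to -0.03 with the level trend removed, and 2 were lower after quantile normalization. The lowest were Xrn1, the main exonuclease of decay from the 5′ end, at -1.59 and Cnot1, the scaffold of the deadenylase complex, at -1.24. From 10 to 12 the 19 members had a median of -0.31, as all genes of that band had. Of these 19, 3 (15.8%) were lower, near the 12.2% of all genes there. Of 48 RNA helicases of the Ddx and Dhx series 8 (16.7%) were lower and 1 higher, with a median of -0.30. Quantile normalization or centring on the genes kept left 2 lower, with medians of -0.13 and -0.15. Of 59 genes with translation factor symbols 6 (10.2%) were lower and 1 higher, with a median of -0.25 that shrank to -0.08 with the trend removed. By level, 1 of 13 was lower from 6 to 8 and 1 of 16 from 8 to 10. From 10 to 12 it was 3 of 17, and at 12 and over 1 of 13. The shares of all genes in these bands were 3.59%, 12.8%, 12.2% and 2.27%. Quantile normalization left 3 of the 59 lower and centring on the genes kept 2. The high one was Eif5a, which helps ribosomes past difficult peptide bonds, with 11.33, 11.24, 11.55, 11.21 and 12.38, a difference of 1.17.

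Ribosomal protein and oxidative phosphorylation genes had medians near 0. All 62 cytosolic ribosomal protein genes differed by less than 2-fold, from -0.91 (Rpl29) to 0.74 (Rpl21), with a median of -0.02 that turned to 0.13 with centring on the genes kept. Mitochondrial ribosomal protein genes had a median of -0.06 with 1 higher and 1 lower of 77, and oxidative phosphorylation genes -0.04 with 2 higher and 5 lower of 82; these medians turned to 0.08 and 0.10 under the same centring. Of the 62 ribosomal protein genes 46 lay at 12 and over, where their median of -0.02 stood beside -0.12 for all genes.

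Stem cell regulators were close to the background. Of 29 genes of the naive pluripotency network 1 was lower and 0 higher, with a median of -0.18 that turned to 0.06 after quantile normalization. The lower member was Rif1, which the repair list also holds. In the list for LIF, FGF, BMP and Nodal signalling 4 of 39 (10.3%) were lower, near the 6.94% of all genes kept; all 4 lay between 8 and 10, where 12.8% of all genes and 4 of 18 of the list were lower. They were Bmpr1a, Smad2 at -1.51, and Il6st and Lifr, the receptor pair for LIF, at -1.41 and -1.23. Il6st read 9.52, 9.65, 9.52, 9.54 and 8.13, with the anti-FLAG array alone standing apart. The list median was -0.11 and turned to 0.03 with centring on the genes kept.

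Of 13 regulatory long noncoding RNAs kept 3 (23.1%) were lower and 0 higher, beside 6.94% and 1.53% over all genes kept. Their median was -0.28 (-0.10 with the level trend removed). Malat1, of nuclear speckles, read 11.70, 11.93, 11.21, 10.93 and 9.50, a difference of -1.43, and Tug1 differed by -1.02. As with Rian, Malat1 was lower in each RIP of its lysate than in the input. Of 25 imprinted genes 6 (24%) were lower, against the same 6.94%, among them Peg3, a zinc finger gene, at -1.65.

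Olfactory receptor genes mostly lay below the level filter. Of 1027 olfactory receptor genes 35 were kept, 3 were higher and 0 lower, and the median was 0.26, between 0.08 and 0.40 under the other scalings. Over 555 olfactory receptor genes between 4 and 6 the median was 0.26 where all genes had 0.15, and over 450 under 4 it was 0.17 where all genes had 0.16.

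The Zfp series of zinc finger genes had 29 of 257 (11.3%) lower and 4 (1.56%) higher, beside 6.94% and 1.53% over all genes kept. With centring on the genes kept the counts were 17 and 7, and the median turned from -0.08 to 0.07. Zfp580 was its highest at 1.42 and Zfp292 its lowest at -1.91.

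Genes with more than 1 kept probe set gave a check within the arrays. For 21 of the 176 higher genes a further kept probe set could be read: 14 pointed the same way and 5 were themselves 2-fold higher. For 58 of the 798 lower genes 44 pointed the same way and 19 were 2-fold lower. Probe sets of a gene share the array and the RNA, so they speak to the probe set and not to the RIP.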

How the data were processed

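RNA of 5 samples (2 inputs and 3 RIPs, 1 array each) was hybridised to Affymetrix arrays, per the labels' protocols. The authors deposited 1 log2 value per probe set and array; the scale was read from the values (2.56 to 14.4), with the background correction, summarisation and normalization not given in the sources used here. Arrays carry no read depth; their number limits the precision. Probe sets with 1 gene symbol (21640; 1321 had several and 11799 none) were matched to RefSeq GRCm38.p6 by gene ID (21553; 87 kept the platform symbol). RefSeq was used for names and for which gene encloses another. The brightest probe set stood for each gene (954 had more than 1), and 8435 genes fell below the level filter. Equal values on both arrays (tolerance 1e-06) were found for 1005 genes kept (8.74%).

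With 1 array per group no test was run. Named genes were the 15 highest and 15 lowest differences, the 3 at either end of each band, up to 3 at either end of each list, the makorin genes and the stem cell markers; enclosing genes, seed companions and further list members (such as Atm, Brca1, Chek2, Bub1b, Cdk1, Chd1, Ep300, Dkc1, Lifr, Rpph1, Rnu12, Mir328 or Snora73b) were chosen after their values were seen, and 1 of the 15 lowest is not reported here. Members, lists and rules were chosen with earlier results of these data known. Lists by symbol pattern hold what the pattern takes: the translation list includes methyltransferases of factors (Eef1akmt1), and the microRNA list the host gene Mir17hg. Of 300 microRNA genes 258 had a RefSeq sequence. Alternatives covered scaling, trend, filters, probe sets, control RIP and threshold. Counting was tested on simulated data. Python 3.11.15, numpy 2.4.6, pandas 2.3.3, scipy 1.17.1 and matplotlib 3.10.9 were used.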

Additional observations from a re-analysis of the deposited data

Results flagged for a closer look

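Probe sets outside the comparison, those without a single gene symbol, also differed between the RIPs. Of 13120 such probe sets 4902 lay at or above the level filter; 476 of these were at least 2-fold higher in the anti-FLAG than in the IgG RIP and 619 at least 2-fold lower. Between the 2 background RIPs the counts over the same probe sets were 101 and 80. They were singled out because no gene count includes them, and which RNAs they read was not analysed here.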

How the results depend on the processing

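With each array centred on its median over all probe sets, 96 genes were higher and the share of higher genes among those 2-fold apart was 7.44%. That share was 31.8% centred on the genes kept (an alternative chosen after seeing the data), 31.0% after quantile normalization, 20.9% without the level filter and 11.5% with the level filter moved up to the 75th percentile, where 84 genes were higher. With the trend against signal level removed 477 genes were lower and the share was 33.8%. At 1.5-fold 735 were higher and 2062 lower (share 26.3%), and at 4-fold 19 and 32 (37.3%). Under the other alternatives, both counts stayed within 1.5 times and the share within its counting interval. Of 113 genes named above that were 2-fold apart, 112 kept their direction with the probe set brightest in the FLAG:MKRN1 input and 1, Depdc1a, turned to -0.0653 there; with values raised to the level filter 110 of 113 kept it, the others going to 0. Of 63 list medians, 52 kept their sign under either centring and 51 under quantile normalization; those that turned lay near 0. No paired analysis was possible because each group has 1 array and no count comes from a test. Nothing here measures how far a repeated RIP would differ: the difference between 2 eluates of 1 lysate carries the variation of each immunoprecipitation, amplification and array, and 1 pair of background RIPs is the available yardstick. A difference in the share of total RNA cannot be told apart from a change in amount.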
